A study of Mus musculus with 9 samples.

Results

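Transcripts of 8 genes that carry out or start regulated cell death were measured by RNA sequencing in retinas of Balb/c mice from a light damage model. The genes are Tnfrsf1a, Fas, Casp8, Ripk1, Ripk3, Mlkl, Bax and Bak1. They were chosen by symbol, and each matched 1 of the 55414 genes in the deposited count table. The groups were light damage with A74, light damage alone and control, with 3 libraries each. The labels do not say what A74 is, its dose or vehicle, the length of the light or the age of the mice. P2RX7, named in the title of the series with its inhibition, is a channel opened by extracellular ATP. Balb/c mice are albino and their photoreceptors are sensitive to bright light. Whether each library came from its own animal is not stated, and p-values therefore reflect only the spread between these libraries, which may in part be technical.

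Regulated cell death can start at the cell surface or inside the cell. Tnfrsf1a and Fas encode receptors of the tumour necrosis factor family, which on binding their ligands can signal to caspase-8, the initiator protease encoded by Casp8. Where caspase-8 is inactive, the kinases RIPK1 and RIPK3 activate MLKL, which breaches the plasma membrane in necroptosis. Bax and Bak1 encode the pore-forming proteins of the outer mitochondrial membrane in intrinsic apoptosis. These proteins are also controlled after translation, so transcript levels describe the supply of the machinery and not its activity.

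Library totals ran from 14787972 to 18740434 counts. Libraries within groups differed in sex-linked transcripts and in genes taken to mark anterior eye tissue. Y-linked genes had 0 counts in all 3 A74 libraries, in light damage replicate 3 and in control replicate 3, against 4249 to 5832 counts in the other 4 libraries. Anterior tissue genes summed to 138 to 274 CPM (counts per 1000000, with library totals scaled by TMM factors) in A74 replicate 1 and in replicates 1 and 2 of light damage and control, and to 12.5 to 15.8 CPM in the other 4. Light damage replicate 3 had neither Y-linked counts nor more than 1 count of Xist, a transcript made from an inactive X chromosome, which had 17227 to 22253 counts in the A74 libraries and control replicate 3. Rod photoreceptor genes, which mark the most abundant cells of the retina, were present at 43807 to 80534 CPM in sum in every library.

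The 250 bases before a RefSeq start (build GRCm38.p6) are shown for Tnfrsf1a, Fas and Casp8, which belong to the death receptor route. All 8 members, and not these genes alone, had their highest group mean in light damage. Capitals mark a match to the STAT core TTCNNNGAA or the AP-1 core TGANTCA. The windows lie on the plus strand at chr1:58802252-58802501 for Casp8, chr6:125349473-125349722 for Tnfrsf1a and chr19:34290409-34290658 for Fas. The Casp8 start used lies inside the gene, since the table gives that start alone.
Casp8: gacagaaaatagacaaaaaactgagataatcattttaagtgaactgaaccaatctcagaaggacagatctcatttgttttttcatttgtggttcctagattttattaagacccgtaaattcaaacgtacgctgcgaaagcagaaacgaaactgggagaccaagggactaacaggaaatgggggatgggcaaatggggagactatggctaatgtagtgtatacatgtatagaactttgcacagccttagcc
Tnfrsf1a: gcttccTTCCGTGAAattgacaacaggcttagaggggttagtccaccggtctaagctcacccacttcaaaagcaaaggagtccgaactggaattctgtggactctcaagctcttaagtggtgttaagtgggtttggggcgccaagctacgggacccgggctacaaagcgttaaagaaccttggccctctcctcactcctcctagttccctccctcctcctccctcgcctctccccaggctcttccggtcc
Fas: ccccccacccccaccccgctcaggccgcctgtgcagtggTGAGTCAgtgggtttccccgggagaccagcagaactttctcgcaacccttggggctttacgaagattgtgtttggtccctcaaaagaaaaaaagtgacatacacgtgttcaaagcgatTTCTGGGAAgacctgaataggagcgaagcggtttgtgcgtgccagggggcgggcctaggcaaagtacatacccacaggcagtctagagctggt
On both strands, 5 motifs were searched: these 2 cores, the interferon regulatory factor pair GAAANNGAAA, the NF-kB consensus and the p53 half-site consensus. Tnfrsf1a held the STAT core 244 bases before the start. Fas held the STAT core 93 bases and the AP-1 core 211 bases before the start. None of the 5 motifs was found in the Casp8 window. Over 32851 RefSeq windows of the same length, 7.02% held the STAT core, 6.75% the AP-1 core, 2.98% the interferon regulatory factor pair, 7.25% the NF-kB consensus and 7.13% the p53 half-site consensus. Among the other members, matched for all 8 genes in 9 windows, 1 of the Ripk1 windows held the STAT core 108 and 11 bases before its start and Bax held a p53 half-site 201 bases before its start. The matches overlapped nowhere in these windows. A match describes letters and not a bound site.

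Light damage was first set against control, to ask which arm of the death machinery moved at the transcript level. The TNF receptor gene Tnfrsf1a and the initiator caspase gene Casp8 rose almost 3-fold, by 1.51 and 1.53 on the log2 scale, and the mitochondrial pore gene Bak1 rose by 0.47. The Fas receptor gene was also higher, but from few reads. Ripk1 and Bax were not called, and Ripk3 and Mlkl, the genes of the necroptosis effectors, had at most 6 counts in any library. Of the 8 members, 5 passed the filter on low counts (10 counts in 3 libraries), and 3 of these 5 were called at an adjusted p under 0.05, all higher, where 13% of all 17272 genes tested were called higher and 25.8% in either direction. In 4 of the 5 the groups did not overlap, as in 40.6% of all genes. The 3 members under the filter were Fas, Ripk3 and Mlkl. Without light damage replicate 3, which held the 9 counts that kept Fas under the filter, 5 members were called higher, with Ripk1 and Fas added. More genes were called in all in that fit, 5467 in place of 4452. Fas entered it only through the remaining light damage libraries.

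**Figure D1:**
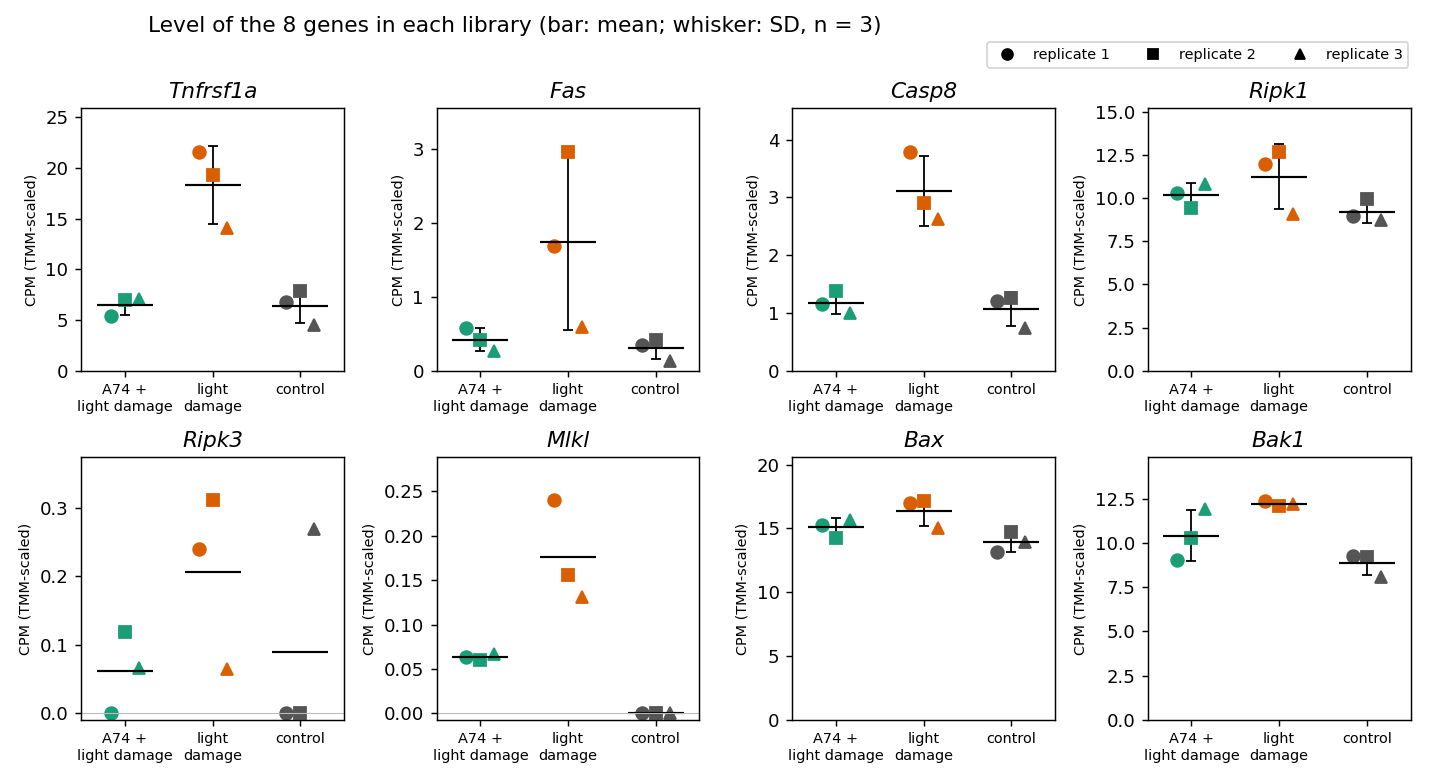
CPM with TMM factors on the vertical axis for each of the 8 genes in light damage with A74, light damage and control; each point is 1 library, the bar is the mean and the whisker the SD over 3 libraries (no whisker for Ripk3 and Mlkl, which had 0 to 6 counts). In Tnfrsf1a and Casp8 all 3 light damage libraries lie above the other 6, while Ripk1 overlaps between groups.

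A74 with light damage was next set against light damage alone. Tnfrsf1a and Casp8 fell by 1.51 and 1.40 on the log2 scale. None of the other 3 members tested was called, with values from -0.23 to -0.12. In all, 2 of 5 members tested were called lower, where 9.19% of all genes were called lower, 9.07% higher and 18.3% in either direction. The groups did not overlap in 3 of the 5, as in 35.1% of all genes. Against control, 0 of the 5 were called with A74, beside 0.892% of all genes in either direction, with 0 at an unadjusted p under 0.05. DESeq2 called 0 as well, but Casp8 had no DESeq2 result in this comparison and so could not be called. The 3 comparisons share libraries, so their values are not independent of each other.

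**Figure D2:**
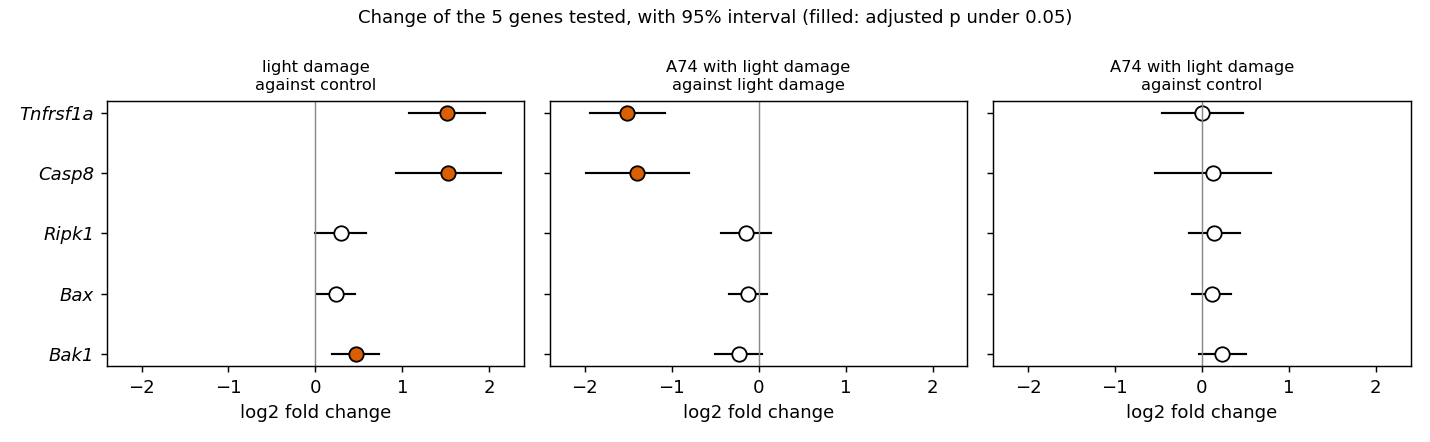
Log2 fold change on the horizontal axis with its 95% interval for the 5 genes tested, in 3 comparisons; filled points have an adjusted p under 0.05 in edgeR's quasi-likelihood test. Tnfrsf1a and Casp8 lie near 1.5 for light damage against control, at -1.51 and -1.40 for A74 with light damage against light damage, and near 0 for A74 with light damage against control.

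Tnfrsf1a (ENSMUSG00000030341) encodes TNFR1, the main receptor of soluble TNF, whose death domain starts either NF-kB signalling or cell death. It had 5.35, 6.93 and 7.03 CPM with A74, 21.6, 19.3 and 14.1 CPM in light damage, and 6.77, 7.89 and 4.51 CPM in control. The 3 light damage libraries were all above the other 6, and A74 and control libraries overlapped. The fold of light damage over control was 2.86, with a 95% interval of 2.11 to 3.87 (edgeR adjusted p = 0.000235). With A74 the level was 0.351 of that in light damage, with an interval of 0.260 to 0.475 (edgeR adjusted p = 0.000465). A74 over control gave a fold of 1.00, with an interval of 0.729 to 1.38 (edgeR adjusted p = 0.993). The presence of Y-linked transcripts as a term, which put all A74 libraries on one side, moved these values. On the log2 scale A74 against control was then 0.44 and not called (edgeR adjusted p = 0.238). A74 against light damage was then -1.08 and still called (edgeR adjusted p = 0.00152).

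Fas (ENSMUSG00000024778) encodes the receptor of Fas ligand, which signals to caspase-8 through the adaptor FADD. It had 9, 7 and 4 counts with A74, 28, 57 and 9 counts in light damage, and 5, 7 and 2 counts in control. In CPM it averaged 0.419 ± 0.154 with A74, 1.74 ± 1.19 in light damage and 0.303 ± 0.150 in control (SD, n = 3 each). Light damage replicate 3, at 0.590 CPM, lay close to the highest A74 library at 0.573 CPM, while the other light damage libraries stood well above both other groups. Fas failed the filter because of the 9 counts in that library and so has no value in the edgeR fit of all filtered genes. DESeq2, which tested it, gave a log2 fold change of 2.52 for light damage against control (SE 0.70, DESeq2 adjusted p = 0.0028) and -2.06 for A74 against light damage (SE 0.66, DESeq2 adjusted p = 0.0164). With no count filter edgeR gave 2.52 and -2.06 (edgeR adjusted p = 8.71e-07 and 4.3e-05). Fas passed the filter in 7 of the 9 fits that left out 1 library, each time only through light damage libraries. There its rise was called each time (edgeR adjusted p = 8.49e-05 to 0.0271). A gene kept only through the light damage libraries had to be high in them, so these calls add no support. Its fall with A74 was not called without A74 replicate 2 (edgeR adjusted p = 0.0638) or A74 replicate 3 (edgeR adjusted p = 0.0747).

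Casp8 (ENSMUSG00000026029) encodes the protease that passes a death receptor signal to downstream proteases and restrains RIPK3. It had 18, 23 and 15 counts with A74, 63, 56 and 40 counts in light damage, and 17, 21 and 11 counts in control. On the CPM scale these were 1.15, 1.37 and 0.995 with A74, 3.78, 2.91 and 2.62 in light damage, and 1.20, 1.26 and 0.740 in control. All light damage libraries were above all others, and those of A74 and control overlapped. The fold of light damage over control was 2.89, with a 95% interval of 1.90 to 4.38 (edgeR adjusted p = 0.00109). The level with A74 was 0.380 of that in light damage, with an interval of 0.252 to 0.572 (edgeR adjusted p = 0.00321). With the presence of Y-linked transcripts as a term, which put all A74 libraries on one side, the A74 difference was -1.06 on the log2 scale and was not called (edgeR adjusted p = 0.0792). A74 over control gave a fold of 1.10, with an interval of 0.691 to 1.74 (edgeR adjusted p = 0.883), so a moderate difference in either direction was not detectable at this depth.

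Ripk1 (ENSMUSG00000021408) encodes the kinase that stands between survival, apoptosis and necroptosis downstream of TNFR1. It had 10.3, 9.44 and 10.8 CPM with A74, 12.0, 12.7 and 9.10 CPM in light damage, and 8.96, 9.94 and 8.75 CPM in control. Light damage replicates 1 and 2 were above the rest, and replicate 3 lay among the control libraries. The fold of light damage over control was 1.22, with a 95% interval of 0.999 to 1.49 (edgeR adjusted p = 0.136). It was called without light damage replicate 3, at 0.42 on the log2 scale (edgeR adjusted p = 0.0202). A74 over light damage gave 0.903, with an interval of 0.740 to 1.10 (edgeR adjusted p = 0.491). In the annotation GENCODE M21, of the older build GRCm38, Ripk1 exons share 511 bases on the same strand with the pseudogene Gm17084, which had 0 counts. They also share 241 bases with Serpinb6a on the opposite strand. Serpinb6a had 110 to 316 counts and rose by 0.79 with light damage (edgeR adjusted p = 0.000617), and whether counting used strand is not given in the sources used here.

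Ripk3 (ENSMUSG00000022221), the kinase that phosphorylates MLKL, had 0, 2 and 1 counts with A74, 4, 6 and 1 counts in light damage, and 0, 0 and 4 counts in control. The groups overlapped. Pooled over a group, light damage had 11 counts and control 4, which is 2.45 times as many for equal depth (95% exact interval of the counts 0.727 to 10.6). A74 had 3 counts against 11 in light damage, or 0.294 times as many (0.0526 to 1.11). Neither was called without a count filter (edgeR adjusted p = 0.588 and 0.463). A difference in Ripk3 was therefore not detectable at this depth.

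Mlkl (ENSMUSG00000012519), the membrane effector of necroptosis, had 1 count in each A74 library, 4, 3 and 2 counts in light damage, and 0 in each control library. The light damage libraries did not overlap with either other group, but no library held more than 4 counts. The 9 counts in light damage came to 2.67 times a floor of 3 counts over the control group at equal depth, and the 95% exact interval of the counts for that comparison began at 1.76. A74 over light damage came to 0.359 (95% exact interval of the counts 0.0625 to 1.44). Without a count filter neither difference was called (edgeR adjusted p = 0.0654 and 0.607). These intervals and floors cover counting error only and leave out the spread between libraries.

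Bak1 (ENSMUSG00000057789) encodes BAK, which sits in the mitochondrial outer membrane and opens pores when it is activated. It had 9.04, 10.3 and 11.9 CPM with A74, 12.4, 12.1 and 12.2 CPM in light damage, and 9.24, 9.22 and 8.08 CPM in control. The light damage libraries, with an SD of 0.140 CPM (n = 3), lay above all others, while A74 libraries ran from the control level almost to that of light damage. The fold of light damage over control was 1.38, with a 95% interval of 1.15 to 1.66 (edgeR adjusted p = 0.0128), and the call was lost without control replicate 3 (edgeR adjusted p = 0.0545). A74 over light damage gave 0.852, with an interval of 0.709 to 1.02 (edgeR adjusted p = 0.219), and A74 over control 1.18, with an interval of 0.974 to 1.42 (edgeR adjusted p = 0.393). Bak1 exons share 614 bases with Ggnbp1 on the opposite strand in GENCODE M21. Ggnbp1 had 16 to 33 counts, with a log2 fold change of 0.18 for light damage against control (edgeR adjusted p = 0.699).

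Bax (ENSMUSG00000003873) encodes the soluble partner of BAK, which moves to mitochondria on activation. It had 15.3, 14.3 and 15.7 CPM with A74, 17.0, 17.1 and 15.0 CPM in light damage, and 13.1, 14.7 and 13.9 CPM in control. Every light damage library was above every control library, and the A74 libraries lay between and overlapped with both. The fold of light damage over control was 1.18, with a 95% interval of 1.01 to 1.37 (edgeR adjusted p = 0.109). A74 over light damage gave 0.919, with an interval of 0.790 to 1.07 (edgeR adjusted p = 0.444). In GENCODE M21, Bax exons share 192 bases on the same strand with Gm45808, which had 0 counts. The upper bounds of 1.37 for Bax and 1.49 for Ripk1 lie below the lower bounds of 1.90 for Casp8 and 2.11 for Tnfrsf1a.

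Within the libraries rich in anterior tissue genes, 2 of light damage against 2 of control, Tnfrsf1a differed by 1.47, Casp8 by 1.43 and Bak1 by 0.41 on the log2 scale. In the other set, 1 library against 1, the differences were 1.64, 1.81 and 0.59. For A74 against control, Tnfrsf1a had -0.46 in the rich set (1 library against 2) and 0.63 in the other (2 against 1). Casp8 had -0.11 and 0.68 in that comparison. For A74 against light damage, Tnfrsf1a had -1.93 in the rich set (1 against 2 libraries) and -1.01 in the other (2 against 1), and Casp8 had -1.53 and -1.13. The difference between the sets (rich minus other) for A74 against light damage was -0.92 for Tnfrsf1a and -0.40 for Casp8. For A74 against control it was -1.09 and -0.79. None of these differences was called, but each set held only 1 library of 1 of the groups, so the test could show little.

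Marker genes of several cell types also changed between the same groups. Of 22 microglia and macrophage markers, 19 rose with light damage and none fell, with a median log2 fold change of 2.27, and 20 fell with A74 against light damage, with a median of -1.97. None of the 22 was at 0 in any group. The sum of these markers was 102, 139 and 113 CPM with A74, 468, 381 and 272 CPM in light damage, and 101, 105 and 94.6 CPM in control. Light damage replicate 3, lowest of its group in this sum, was also the lowest of its group in every member but Bak1. Of 18 rod markers, 13 fell with light damage and 14 rose with A74 against light damage, with medians of -0.53 and 0.40. Of 10 Müller glia markers 8 rose with light damage, and with A74 8 fell and 1 rose. Of 10 endothelial markers, 3 rose with light damage and 3 fell with A74. Of 8 neutrophil markers 1 passed the filter, and it rose with light damage by 2.08 and fell with A74 by 1.08 on the log2 scale. Their sum was 1.33 to 2.63 CPM with A74, 2.82 to 4.20 CPM in light damage and 0.843 to 1.34 CPM in control, while the neutrophil markers Ly6g, Mpo and Elane were at 0 in all light damage libraries. Of 8 T and NK cell markers 0 passed the filter, and Cd3e, Cd3d, Cd3g, Nkg7 and Gzma were at 0 both in light damage and with A74. The sum of the 8 was 0.418 to 0.663 CPM with A74, 0.262 to 0.540 CPM in light damage and 0.542 to 0.740 CPM in control. In whole retina, more or fewer cells of a type cannot be told apart from more or less RNA per cell. The part of these cell types in the changes of the members was not tested.

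**Figure D3:**
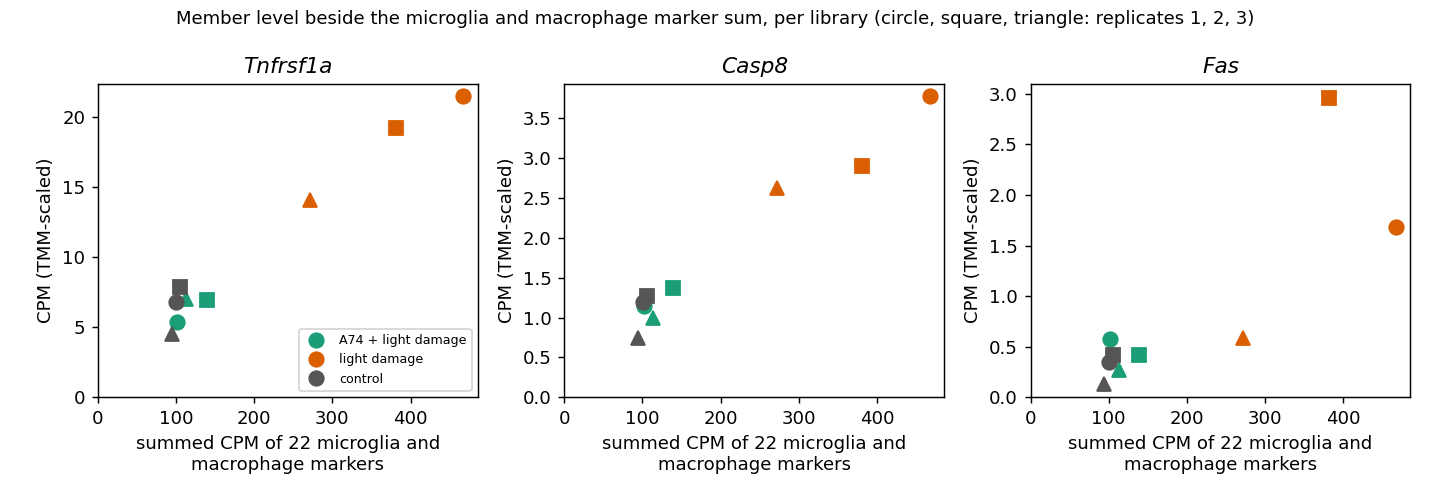
CPM of Tnfrsf1a, Casp8 and Fas on the vertical axes against the summed CPM of 22 microglia and macrophage markers on the horizontal axis, with 1 point per library. The light damage libraries lie at 272 to 468 CPM of marker sum and the libraries of A74 and control at 94.6 to 139 CPM. Within light damage, Tnfrsf1a and Casp8 had the same order of libraries as the marker sum. Fas was highest in light damage replicate 2, which was not the highest in the marker sum.

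The wider death machinery was followed through 6 lists with 83 genes besides the members, of which 72 passed the count filter. With light damage 12 rose and 8 fell, or 27.8% called, close to the 25.8% of all genes, and their median log2 fold change was 0.02 beside 0.01 for all genes. With A74 against light damage 6 rose and 6 fell, or 16.7% called beside 18.3% of all genes, with a median of -0.02 beside 0.00. These counts include Casp1 and Bcl2a1d, which passed the count filter only through their light damage libraries. Without light damage replicate 2 the count for light damage was 11 in place of 20, and the A74 count of 12 became 22 without light damage replicate 3 and 7 without A74 replicate 3. With A74 against control 1 of 72 was called.

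Among ligands and receptors, 1 of 6 tested rose with light damage and the same gene was the 1 that fell with A74. This was Tnfrsf21, which encodes death receptor 6, with log2 fold changes of 0.40 (SE 0.10, edgeR adjusted p = 0.00828) and -0.58 (SE 0.10, edgeR adjusted p = 0.00133). Tnf and Fasl, the ligand genes of the 2 member receptors, had at most 6 counts in any library and were not tested. Tnfrsf1b, the gene of the second TNF receptor, had 41, 31 and 15 counts with A74, 95, 105 and 36 counts in light damage, and 46, 59 and 13 counts in control. Its groups overlapped and it was not called (log2 fold change 0.82 for light damage, edgeR adjusted p = 0.314).

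Of 23 adaptors and regulators of the receptor complexes tested, 1 rose and 4 fell with light damage, and 3 rose with A74. Xiap, which encodes an inhibitor of caspases, fell by 0.61 with light damage (SE 0.08, edgeR adjusted p = 4.62e-05). It was the gene called lower with A74 against control, at -0.39 (edgeR adjusted p = 0.0184), a call lost with Y-linked transcripts as a term and without control replicate 1, control replicate 2, A74 replicate 2 or A74 replicate 3. Tnfaip3, the gene of the ubiquitin-editing NF-kB inhibitor A20, fell by 0.74 with light damage (edgeR adjusted p = 0.00508) and rose by 0.79 with A74 (edgeR adjusted p = 0.00562). Chuk, an IKK kinase gene, fell by 0.23 with light damage and rose by 0.25 with A74. Birc3, which encodes the related ligase cIAP2 and was picked out after its values were seen, was the 1 that rose with light damage, by 1.48 (edgeR adjusted p = 0.0356) on at most 29 counts in a library. Birc2, the gene of the ubiquitin ligase cIAP1, rose by 0.34 with A74 (edgeR adjusted p = 0.00482). Fadd, the adaptor between Fas and caspase-8, had 0.24 with light damage (edgeR adjusted p = 0.260), and Cflar, which encodes the caspase-8 inhibitor cFLIP, had -0.05 (edgeR adjusted p = 0.764). Zbp1, a nucleic acid sensor that can engage RIPK3, had 6, 7 and 3 counts with A74, 64, 69 and 8 counts in light damage, and 8, 0 and 1 counts in control. It was high in light damage replicates 1 and 2 alone and was not tested under the filter.

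Among the other caspase genes, Casp1, the inflammatory caspase of inflammasomes, had 0, 7 and 1 counts with A74, 41, 31 and 16 counts in light damage, and 1, 2 and 3 counts in control. Its log2 fold changes were 3.63 for light damage and -3.30 for A74 against light damage. It passed the count filter only through its light damage libraries, so a tested gene of this kind had to differ from the other groups. Casp9, the initiator caspase of the mitochondrial route, had 0.11 with light damage (edgeR adjusted p = 0.370).

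**Figure D4:**
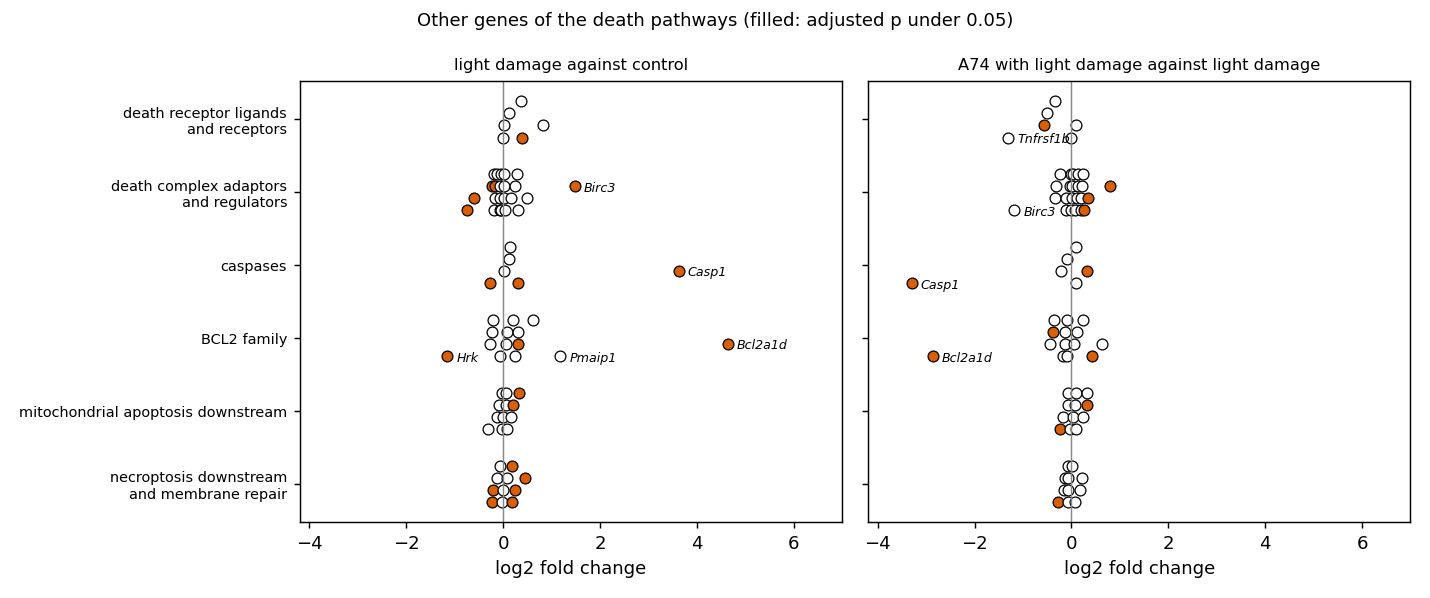
Log2 fold change on the horizontal axis for the genes tested in 6 lists of the death pathways, for light damage against control and A74 with light damage against light damage; filled points have an adjusted p under 0.05 in edgeR's quasi-likelihood test and names are given beyond 1.1 in either direction. Most of the 72 genes lie near 0 and Casp1 and Bcl2a1d lie farthest out; both passed the count filter only through their light damage libraries.

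In the BCL2 family, which acts on BAX and BAK, 2 of 14 genes tested rose and 1 fell with light damage, and 1 rose and 2 fell with A74. Mcl1, an anti-apoptotic member, rose by 0.30 with light damage (SE 0.06, edgeR adjusted p = 0.00192). Bcl2a1d, another anti-apoptotic member, had 2, 2 and 4 counts with A74, 22, 30 and 14 counts in light damage, and 2, 0 and 0 counts in control. It too passed the filter only through light damage, and it has near-identical copies, among which reads may be split, so its value is uncertain. Hrk, a BH3-only gene of neurons, fell by 1.16 with light damage (SE 0.39, edgeR adjusted p = 0.0363) on at most 17 counts in a library. Bcl2 rose by 0.42 with A74 (edgeR adjusted p = 0.0100), and Bad, a pro-apoptotic BH3-only gene, fell by 0.38 (edgeR adjusted p = 0.0187). Bid, the BH3-only protein that caspase-8 cleaves to reach BAX and BAK, had 0.05 with light damage (edgeR adjusted p = 0.903), and Bcl2l1 had 0.21 (edgeR adjusted p = 0.0658).

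Of 12 genes downstream of the mitochondrial pore, 2 rose with light damage, namely Vdac3 by 0.34 and Vdac1 by 0.20, which encode channels of the outer membrane. With A74, Vdac3 fell by 0.25 and Dffa, the gene of the inhibitor of the caspase-activated DNase, rose by 0.32. Cycs, the cytochrome c gene, had 0.16 with light damage (edgeR adjusted p = 0.0890). Of 11 genes around necroptosis execution and membrane repair, 4 rose and 2 fell with light damage and 1 fell with A74. Hsp90ab1, a chaperone of RIPK kinases and many other clients, rose by 0.45 with light damage (SE 0.07, edgeR adjusted p = 0.00026) and fell by 0.27 with A74. Chmp2a, an ESCRT-III subunit gene, rose by 0.24, and Ppm1b, a phosphatase gene, fell by 0.22 with light damage. None of the genes in these 2 lists was called with A74 against control by edgeR.

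The level pattern of Casp8 over the 9 libraries was most like that of Mpeg1, Bsg and Rlbp1, with Pearson correlations of log2 CPM of 0.993, 0.990 and 0.990. That of Tnfrsf1a was most like Fth1, Apoe and B3gat3, at 0.992, 0.991 and 0.989. Bak1 was most like Snrpb (0.976), Bax like Ankrd29 (0.979) and Ripk1 like Arl1 (0.961). These correlations are over 9 libraries in 3 groups, among 13573 named genes that averaged 1 CPM or more, and the group differences enter them. Among the members, Casp8 and Tnfrsf1a correlated at 0.973 and Ripk1 and Bax at 0.928, while Casp8 and Ripk1 correlated at 0.613.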

How the data were processed

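RNA was taken from retinas of 9 samples in 3 groups of 3, with groups and replicate numbers from the sample titles. The authors deposited 1 table of whole-number read counts per gene, not normalised as judged from totals that differ between libraries. The submitters' processing notes name the build GRCm39, DESeq2 1.4.5, RSEM 1.3.1 and Bowtie2 and give no roles. Strand use was not given in the sources used here, nor was the annotation release.

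Genes were kept by edgeR's filterByExpr (minimum count 10), which left 17272. Counts were scaled by TMM and tested in 1 fit of all 9 libraries with edgeR 4.0.16 in R 4.3.3 (robust quasi-likelihood test, Benjamini-Hochberg adjustment over all genes tested, called under 0.05). The SE came from the log2 fold change and the root of F, and 95% intervals use the test's degrees of freedom. Log2 CPM for correlations used a prior count of 2. The test was checked on simulated data. The alternatives were DESeq2's size factors, DESeq2 1.42.0, no filter, the 2 groups alone, a replicate block, anterior tissue and Y-linked splits as terms, and leaving out libraries. The splits were defined from the data, anterior tissue at the widest gap of the summed list on the log2 scale.

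The members, gene lists, splits and motifs were chosen with earlier results of these data known. The genes named from a list are taken from up to 4 with the smallest adjusted p for light damage, up to 2 more for A74, and 11 fixed genes. Pmaip1, Birc3 and Tnfrsf1b appear in a plot for their size. Some genes of these lists are counted but not reported by name here. No replicates held identical values. Promoter windows and overlapping genes come from RefSeq (GRCm38.p6) and GENCODE M21, of an older build than the counts.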

Additional observations from a re-analysis of the deposited data

How the results depend on the processing

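Of 254 values of the 5 tested members under alternatives, 245 kept their direction and side of the threshold, 2 lost and 2 gained a call and 5 changed sign, all 5 of them values that were not called. Those were Ripk1 for A74 against light damage with Y-linked transcripts as a term (0.050) and, for A74 against control in fits that left out 1 library, Casp8 (-0.065 to 0.28) and Tnfrsf1a (-0.19 to 0.19). With Y-linked transcripts as a term, Casp8 reached 0.48 and Tnfrsf1a 0.44 for A74 against control, their highest values under any alternative, and neither was called. The rise of Tnfrsf1a with light damage ran from 1.32 to 1.70 and that of Casp8 from 1.33 to 1.67, called under every alternative. With Y-linked transcripts as a term, 1 member was called for A74 against light damage in place of 2, with 2 pathway genes in place of 12 and 745 genes in place of 3153. Without light damage replicate 3 and A74 replicate 1, 5 members were called for light damage in place of 3, with 5797 genes in all, and for A74 against light damage 25 pathway genes and 4518 genes in all. The 5 members include Fas, which passed the filter there only through light damage libraries, so its call adds no support. Pathway genes kept in the same way can enter these counts too, as Casp1 and Bcl2a1d did in the main fit. Leaving out 1 library gave 3 to 5 members for light damage and 2 to 3 for A74 against light damage, with Fas counted where it passed the filter and was called. It gave 11 to 28 pathway genes in place of 20, and 7 to 22 in place of 12, and 2818 (without light damage replicate 2) to 5467 genes in place of 4452, and 1717 (without light damage replicate 1) to 4514 in place of 3153. For A74 against control the 154 genes called became 718 without a filter, 934 without those 2 libraries, 96 with Y-linked transcripts, 558 with the 2 groups alone, 296 in DESeq2 and 21 to 416 on leaving out 1 library. The 1 pathway gene called there became 3, 4, 0, 2, 2 and 0 to 2 in the same order. Libraries with the same replicate number in the sample titles did not deviate together in all pairs (correlations from -0.09 to 0.31, over 0.1 in 6 of 9 pairs, and 7 of 9 libraries correlated best with their own number). The submitters' library names number the light damage and A74 libraries differently, and pairing by those numbers was not tested. With the replicate number as a block, 3 and 2 members were called, 22 and 13 pathway genes, and 4588 and 3362 genes, for light damage and for A74 against light damage. Depth limits Ripk3 and Mlkl, at no more than 6 counts in a library, and Fas, whose call for A74 depends on the libraries kept.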
